A study of Mus musculus with 6 samples.

Results

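Liver sinusoidal endothelial transcripts are a group of 10 genes, *Stab2*, *Lyve1*, *Clec4g*, *Kdr*, *Pecam1*, *Cdh5*, *Oit3*, *Dnase1l3*, *Tek* and *Egfl7*, out of 49315 genes with a read count. They were chosen by name to gauge how much endothelial RNA a macrophage preparation carried, and all 10 had enough reads to be tested. The RNA came from F4/80-positive cells of mouse liver, F4/80 being the surface protein encoded by *Adgre1* that marks macrophages. The livers were digested by collagenase perfusion, hepatocytes were spun out, and cells that bound anti-F4/80 magnetic beads were sequenced as poly(A) RNA, 1 library per mouse. The question put to the data was how far macrophage loss of *Lpcat3*, which encodes an enzyme that places polyunsaturated fatty acids on phospholipids, alters these cells. The 3 WT mice were *Lpcat3* fl/fl, LysM +/+ littermates, so they carried the floxed alleles without Cre, and the 3 *Lpcat3* KOMac mice were *Lpcat3* fl/fl, LysM Cre/+. All were on the C57BL/6N background and ate a high-fat diet (HFD) with 60% fat for 16 weeks from young adulthood. LysM is *Lyz2*, so Cre is expressed in myeloid cells from 1 altered *Lyz2* allele, and endothelial cells are not its target. The study used mice of both sexes. The labels give a number for each mouse and no litter or day, and the p-values measure the spread between these 6 libraries.

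Liver sinusoids are lined by a fenestrated endothelium without a continuous basement membrane, and its cells clear waste such as hyaluronan and denatured collagen from the blood through scavenger receptors. Kupffer cells, which are liver macrophages, sit inside the same vessels in contact with this endothelium, and collagenase digestion frees both cell types. Some endothelial proteins are shared with other cells of the liver: *Pecam1* is also made by platelets and leukocytes, and *Lyve1* by some tissue macrophages.

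*Lpcat3* itself lay between 61.2 and 85 CPM (reads scaled to library size with the TMM factor of edgeR) in WT and between 19.4 and 33.3 CPM in *Lpcat3* KOMac libraries, so the genotype labels held in all 6. Total counts were 44954224 to 71392812 per library. The lowest count of any of the 10 endothelial transcripts was 634 reads, for *Tek* in WT mouse 2, and the highest was 57980, so counting error was small beside the spread between mice. Hepatocyte transcripts (*Alb*, *Apoa1*, *Ttr*, *Apob*, *Fgb*) summed to 1760 to 18900 CPM in WT and 4440 to 12400 CPM in *Lpcat3* KOMac cells, highest in WT mouse 1 and *Lpcat3* KOMac mouse 2. All 8 Kupffer cell markers were present, and mean *Adgre1* was 2520 CPM in WT (SD 474, n = 3) against 2230 CPM in *Lpcat3* KOMac cells (SD 217, n = 3). The preparation thus held its labelled cell type together with hepatocyte and endothelial RNA.

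All 10 endothelial transcripts were detected in every library, and per unit of length they spanned a wide range. To compare genes, CPM was divided by exon length in kilobases to give FPKM. *Cdh5*, which encodes VE-cadherin of endothelial adherens junctions, was the highest at 189 ± 50.2 FPKM (SD, n = 6; 128 to 275), rank 237 of the 16134 genes tested. *Stab2*, a scavenger receptor for hyaluronan, had 55.4 ± 7.03 FPKM (SD, n = 6), and *Clec4g*, a C-type lectin of sinusoidal endothelium, had 42.1 ± 13.6 FPKM (SD, n = 6). *Pecam1* (34.5), *Dnase1l3* (27.3), *Oit3* (19.9), *Lyve1* (13.2), *Kdr* (11.4) and *Egfl7* (10.1) followed as mean FPKM. *Tek* was lowest at 4.99 ± 1.91 FPKM (SD, n = 6), rank 7099. For scale, *Adgre1* ranked 52 and *Alb* 20 on the same measure.

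Only *Cdh5* stood apart from its neighbour in this order, its lowest library (128 FPKM) lying above the highest *Stab2* library (61.6 FPKM). Every other pair of neighbours overlapped in range. The order still held library by library for some of them: *Dnase1l3* was above *Oit3*, *Oit3* above *Lyve1* and *Egfl7* above *Tek* in 6 of 6 libraries. *Lyve1* and *Kdr* could not be ordered, with *Lyve1* higher in 3 of 6.

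**Figure D1:**
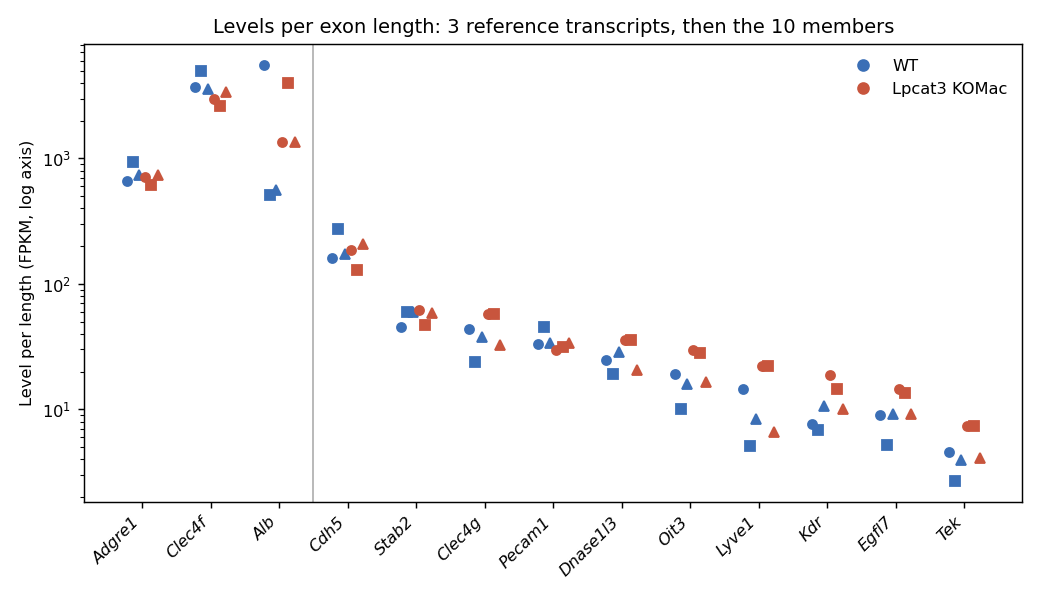
Level per exon length (FPKM, log axis) of *Adgre1*, *Clec4f* and *Alb* and of the 10 endothelial transcripts in each of the 3 WT (blue) and 3 *Lpcat3* KOMac (red) libraries; circles, squares and triangles are mice 1, 2 and 3. *Cdh5* lies between 128 and 275 FPKM, above every other endothelial transcript, and *Tek* between 2.69 and 7.33 FPKM is the lowest on average.

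No endothelial transcript differed between genotypes in the edgeR quasi-likelihood test with Benjamini-Hochberg adjustment over all 16134 genes (adjusted p = 1 for each of the 10). The same test called 0 genes of any kind, which is 0% of those tested. It thus did not call the deleted gene *Lpcat3* (log2 fold change -1.56, standard error 0.26), whose groups did not overlap. A lack of calls is therefore not evidence of no difference. DESeq2 called 12 genes (0.0744%), with *Lpcat3* among them (DESeq2 adjusted p = 0.00286) and none of the 10. At an unadjusted p under 0.05 edgeR had 172 genes higher in *Lpcat3* KOMac cells (1.07%) and 254 lower (1.57%). *Kdr* and *Tek* were 2 of the 172, and none of the 10 was among the 254. Of the 10, 8 had a log2 fold change above 0 (*Lpcat3* KOMac against WT), and the median of the 10 was 0.58 (0.36 without WT mouse 2). Over all genes tested, 40.1% were above 0 and the median was -0.04. In bulk RNA a difference in the number of endothelial cells cannot be told apart from a difference in RNA per cell, here or in any result that follows.

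Of the receptors that clear material from sinusoidal blood, *Stab2* (ENSMUSG00000035459, chr10:86841203-87007942 on GRCm38) read 371, 489 and 482 CPM in the WT mice, given here and below in the order of their numbers, and 501, 385 and 477 CPM in the *Lpcat3* KOMac mice. The groups overlapped fully, and the highest library exceeded the lowest only 1.35-fold. The means were 447 ± 66.3 and 454 ± 61.3 CPM (SD, n = 3 each), and the log2 fold change was 0.02 with a standard error (SE) of 0.16. The two-sided exact permutation test of single genes, which cannot go below 0.1 with 3 mice against 3, gave p = 0.7.

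*Lyve1* (ENSMUSG00000030787, chr7:110850607-110863239), a hyaluronan receptor shared by sinusoidal and lymphatic endothelium, was at 42.4, 14.8 and 24.6 CPM in WT and at 65.1, 64.2 and 19.2 CPM in *Lpcat3* KOMac mice. *Lpcat3* KOMac mice 1 and 2 were above every WT mouse, and *Lpcat3* KOMac mouse 3 fell between WT mice 2 and 3. It had the widest span of the 10, 4.4-fold, and a log2 fold change of 0.86 (SE 0.59, exact permutation p = 0.3). *Clec4g* (ENSMUSG00000074491, chr8:3707064-3720651) read 108, 58.9 and 92.4 CPM in WT and 142, 141 and 79.8 CPM in *Lpcat3* KOMac mice. The same pair of *Lpcat3* KOMac mice was highest, WT mouse 2 was lowest, and the groups overlapped through *Lpcat3* KOMac mouse 3. Its log2 fold change was 0.49 (SE 0.31, exact permutation p = 0.3).

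Among the growth factor receptors, *Kdr* (ENSMUSG00000062960, chr5:75932827-75978458), the main signalling receptor for VEGF, was at 68.6, 62.3 and 95.7 CPM in WT and at 169, 131 and 91.5 CPM in *Lpcat3* KOMac mice. *Lpcat3* KOMac mouse 3 lay just under WT mouse 3, the only WT mouse above it. The means were 75.5 ± 17.7 and 130 ± 38.8 CPM (SD, n = 3 each), which is 0.79 on the log2 scale (SE 0.27). *Tek* (ENSMUSG00000006386, chr4:94739289-94874976), the angiopoietin receptor TIE2, read 21.5, 12.7 and 18.6 CPM in WT and 34.5, 34.5 and 19.4 CPM in *Lpcat3* KOMac mice. *Lpcat3* KOMac mouse 3 was again within the WT range. The log2 fold change was 0.74 (SE 0.30). *Kdr* and *Tek*, whose unadjusted edgeR p was under 0.05, both gave an exact permutation p of 0.2.

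The transcripts *Cdh5* and *Pecam1*, of a junction and an adhesion protein, went the other way on average. *Cdh5* (ENSMUSG00000031871, chr8:104101625-104144511) was at 676, 1160 and 730 CPM in WT and at 786, 536 and 873 CPM in *Lpcat3* KOMac mice. WT mouse 2, the lowest library for *Lyve1*, *Clec4g*, *Kdr* and *Tek*, was the highest for *Cdh5*, and *Lpcat3* KOMac mouse 2 was the lowest. Its log2 fold change was -0.22 (SE 0.28, exact permutation p = 0.6), and without WT mouse 2 it was 0.06. *Pecam1* (ENSMUSG00000020717, chr11:106654217-106750628), which encodes the adhesion molecule CD31, read 206, 283 and 209 CPM in WT and 185, 194 and 212 CPM in *Lpcat3* KOMac mice. WT mouse 2 was again highest and the other 5 libraries lay close together. The log2 fold change was -0.24 (SE 0.15, exact permutation p = 0.3). When libraries were scaled to equal levels of the 8 Kupffer cell markers, *Cdh5* and *Pecam1* turned to 0.07 and 0.08, and the median of all genes moved by 0.29 in the same direction.

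The transcripts of secreted proteins shared the highest pair and the lowest library of *Clec4g*. *Oit3* (ENSMUSG00000009654, chr10:59422958-59441778), a zona pellucida domain protein of liver endothelium, was at 53.5, 28.0 and 44.0 CPM in WT and at 82.9, 78.9 and 45.8 CPM in *Lpcat3* KOMac mice. The log2 fold change was 0.73 (SE 0.32, exact permutation p = 0.2). *Dnase1l3* (ENSMUSG00000025279, chr14:7964533-7994573), a DNase that degrades circulating chromatin, read 127, 98.3 and 146 CPM against 182, 182 and 106 CPM, or 0.34 on the log2 scale (SE 0.26, exact permutation p = 0.3). In both genes *Lpcat3* KOMac mice 1 and 2 were highest, mouse 3 was inside the WT range, and WT mouse 2 was lowest.

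*Egfl7* (ENSMUSG00000026921, chr2:26580014-26593120), an angiogenic factor of the endothelial matrix, was at 32.6, 18.6 and 32.7 CPM in WT and at 52.0, 48.6 and 33.1 CPM in *Lpcat3* KOMac mice. It was the only transcript of the 10 with every *Lpcat3* KOMac library above every WT library, by 33.1 against 32.7 CPM at the closest point. That order held for 2.29% of all genes tested, and its reverse, found for none of the 10, held for 5.2%. The log2 fold change of *Egfl7* was 0.67 (SE 0.28), and the exact permutation p was 0.1, the smallest possible. *Egfl7* shares 64 exon bases with *Agpat2* on the other strand. The strand setting of the counting is not given in the sources used here. *Agpat2* had 4643, 659 and 419 counts in WT and 1301, 1712 and 887 counts in *Lpcat3* KOMac mice, a different order from that of *Egfl7*. On the same strand *Gm20532*, with 264 shared exon bases, and the microRNA gene *Mir126a* inside *Egfl7* had 0 counts in every library. Antisense genes sharing exon bases with *Stab2* and *Clec4g* had at most 92 and 28 counts.

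**Figure D2:**
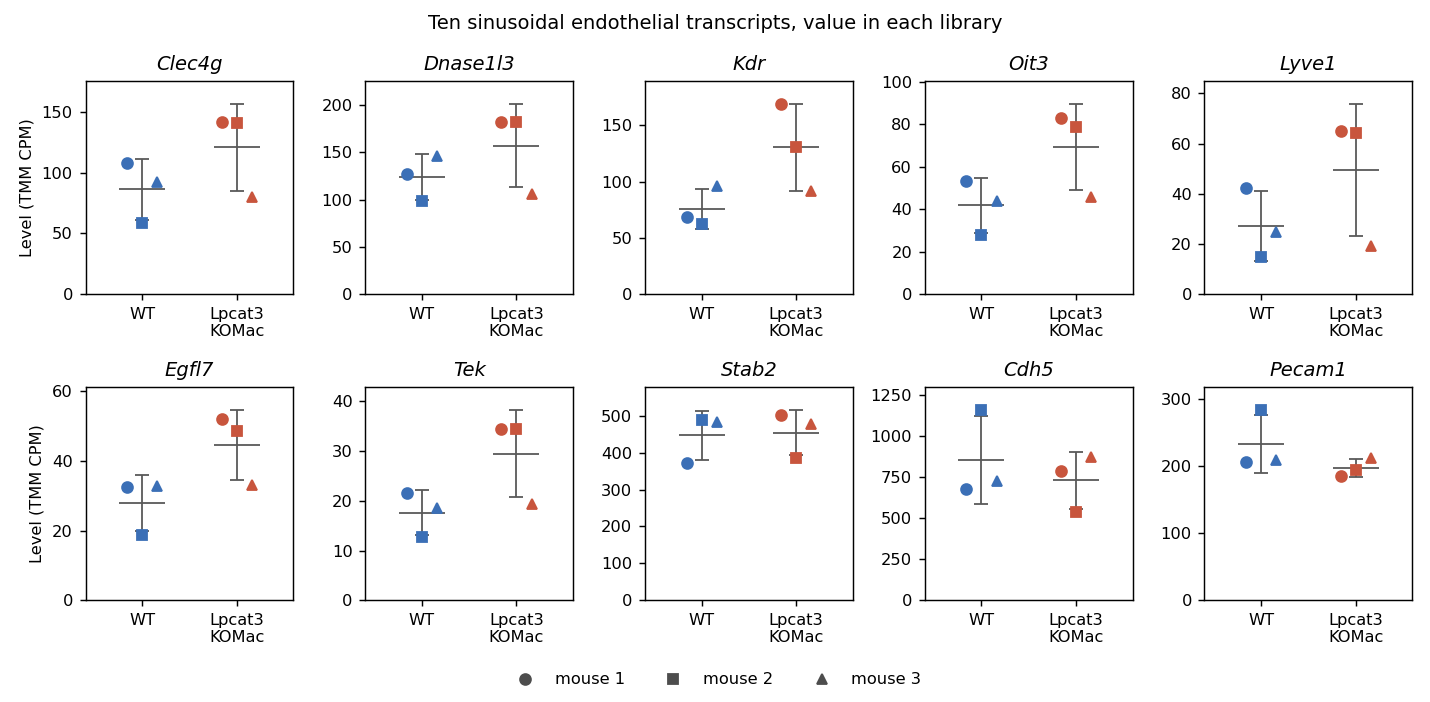
Level (TMM-scaled CPM, linear axis from 0) of each of the 10 transcripts in the 3 WT (blue) and 3 *Lpcat3* KOMac (red) libraries; wide bars are means, whiskers 1 SD (n = 3), and point shapes mark mice 1, 2 and 3. In 7 panels *Lpcat3* KOMac mice 1 and 2 are the highest pair and WT mouse 2 the lowest, while *Stab2*, *Cdh5* and *Pecam1* do not follow that order.

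The 10 transcripts thus fell into a set of 7 with a shared order of libraries and a set of 3 without it. This division was made after their values were seen. The 3 had no common order, as *Lpcat3* KOMac mouse 1 was highest for *Stab2* and lowest for *Pecam1*. In all 7 of *Clec4g*, *Dnase1l3*, *Kdr*, *Oit3*, *Lyve1*, *Egfl7* and *Tek*, WT mouse 2 was lowest and *Lpcat3* KOMac mice 1 and 2 were the highest pair. *Lpcat3* KOMac mouse 3 was below the highest WT mouse in 6 of the 7. This order of libraries held for 511 of 16134 genes tested (3.17%). The summed level of the 7 was 453, 294 and 454 CPM in WT and 728, 680 and 395 CPM in *Lpcat3* KOMac mice. *Stab2*, *Cdh5* and *Pecam1* summed to more than the 7 in every library, from 62.1% of the 10 in *Lpcat3* KOMac mouse 2 to 86.8% in WT mouse 2. The sum of all 10 was therefore highest in WT mouse 2 (2220 CPM), the library with the lowest sum of the 7.

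Pairwise correlations of log2 CPM over the 6 libraries describe the same split and carry no test, since all genes share the libraries and their scaling. Among the 21 pairs within the 7, Pearson's r ran from 0.74 to 1.00 (median 0.90, n = 6). Among the 3 pairs within *Stab2*, *Cdh5* and *Pecam1* it ran from 0.29 to 0.79. Across the sets the 21 pairs ran from -0.96 to 0.16 (median -0.76). With *Adgre1*, the macrophage transcript, r was 0.96 for *Cdh5*, 0.87 for *Pecam1* and 0.69 for *Stab2*, and from -0.85 for *Clec4g* to -0.51 for *Kdr* among the 7. With *Alb*, the hepatocyte transcript, r was above 0 for all 7, from 0.14 for *Kdr* to 0.68 for *Lyve1*, and below 0 for *Stab2* (-0.89), *Cdh5* (-0.73) and *Pecam1* (-0.56). The part of hepatocyte RNA in these patterns was not tested. Which cells the *Cdh5*, *Pecam1* and *Stab2* reads came from was not tested.

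Set against *Adgre1* in the same library, the FPKM of *Cdh5* was 24.5, 29.3 and 23.7% in WT and 26.1, 20.9 and 28.2% in *Lpcat3* KOMac mice, a span of 1.4-fold. *Stab2* was 6.39 to 8.61% of *Adgre1* and *Pecam1* 4.16 to 5.1%, spans of 1.35-fold and 1.23-fold. *Clec4g* was 6.64, 2.54 and 5.12% of *Adgre1* in WT and 8.08, 9.37 and 4.4% in *Lpcat3* KOMac mice, a span of 3.68-fold. *Kdr* spanned 3.57-fold, from 0.734% in WT mouse 2 to 2.62% in *Lpcat3* KOMac mouse 1. The FPKM ratio of *Cdh5* to *Clec4g*, both placed on the list by name, went from 2.23 in *Lpcat3* KOMac mouse 2 to 11.5 in WT mouse 2, a span of 5.17-fold. The ratio of *Cdh5* to *Tie1*, a gene of endothelium in general, went from 16.4 to 102 in the same 2 libraries. The transcripts of the list therefore gave no common reading of the endothelial share of a library. Whether *Cdh5* reads gauge endothelium in this preparation was not tested.

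**Figure D3:**
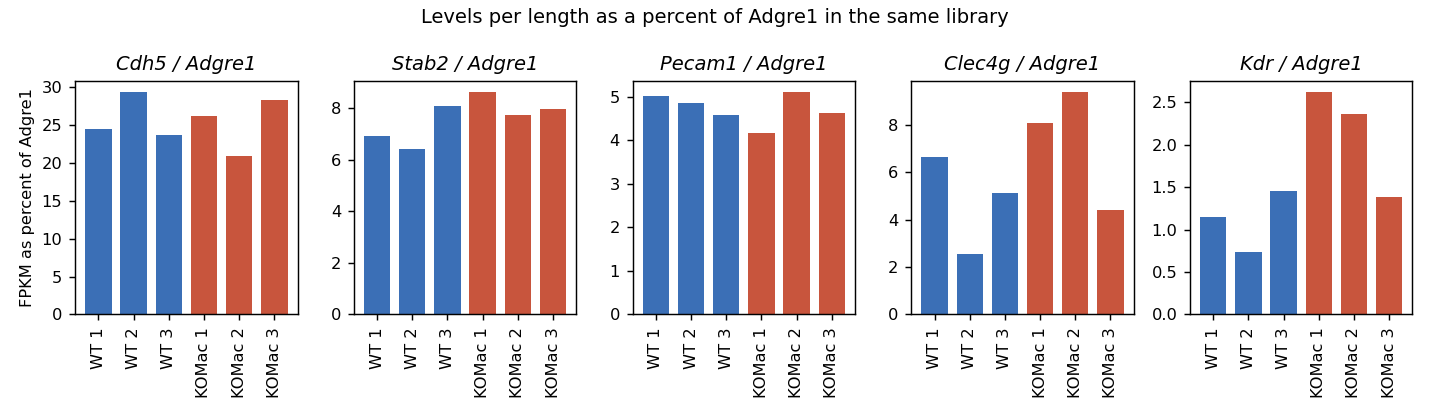
FPKM of *Cdh5*, *Stab2*, *Pecam1*, *Clec4g* and *Kdr* as a percent of the FPKM of *Adgre1* in the same library (bars from 0; 3 WT in blue, 3 *Lpcat3* KOMac in red). The bars of *Cdh5*, *Stab2* and *Pecam1* span 1.23-fold to 1.4-fold, those of *Clec4g* and *Kdr* 3.68-fold and 3.57-fold.

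Promoter sequences were looked up to show what lies at the starts of transcripts from both sets. RefSeq promoters on GRCm38.p6, each 250 bases before to 50 bases after the start, were at hand for 5 of the 10 genes, as 7 promoters. They were searched on both strands for AGGAAG, the core bound by ETS factors, which are prominent in endothelium, and for AGATAA, which factors of the GATA family bind. AGGAAG was in 4 of the 7, against 35.4% of 32851 promoters of the same length, and AGATAA was in 1, that of *Tek*, against 11.2%. The promoters below are *Stab2*, which varied little (chr10:87007893-87008192, minus strand), *Clec4g*, which varied with the 7 (chr8:3720602-3720901, minus strand), and the most upstream of 3 for *Egfl7*, which had no overlap between groups (chr2:26580833-26581132, plus strand). Capitals mark AGGAAG or its reverse complement CTTCCT.
*Stab2*: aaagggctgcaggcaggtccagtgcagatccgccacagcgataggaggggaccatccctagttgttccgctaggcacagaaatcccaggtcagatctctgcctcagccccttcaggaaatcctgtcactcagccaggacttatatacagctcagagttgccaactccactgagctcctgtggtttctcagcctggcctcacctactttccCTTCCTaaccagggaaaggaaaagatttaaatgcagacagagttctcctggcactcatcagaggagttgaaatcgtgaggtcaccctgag
*Clec4g*: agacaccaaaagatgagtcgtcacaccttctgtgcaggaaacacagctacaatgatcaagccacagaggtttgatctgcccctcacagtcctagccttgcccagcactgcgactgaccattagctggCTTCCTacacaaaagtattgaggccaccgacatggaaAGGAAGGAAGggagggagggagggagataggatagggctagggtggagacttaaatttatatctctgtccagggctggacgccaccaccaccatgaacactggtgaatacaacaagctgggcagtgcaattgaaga
*Egfl7*: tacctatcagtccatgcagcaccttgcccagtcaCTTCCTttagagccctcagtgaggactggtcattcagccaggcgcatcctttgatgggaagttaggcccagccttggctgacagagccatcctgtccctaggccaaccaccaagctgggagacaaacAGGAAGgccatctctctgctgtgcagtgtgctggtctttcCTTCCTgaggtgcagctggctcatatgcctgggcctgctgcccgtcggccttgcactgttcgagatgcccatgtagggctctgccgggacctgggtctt
*Stab2* held 1 match, 40 bases before the start. *Clec4g* held 3 and *Egfl7* 3, and a pair of those in *Clec4g* overlap. Of the other *Egfl7* promoters, the middle held 2 and the most downstream 0, so the 4 promoters with a match are not from 4 genes. The *Kdr* and *Tek* promoters held 0 matches to AGGAAG, and other sequences that ETS factors bind were not searched for. A match is a run of letters and not a measured binding site. Of the set of 3, only *Stab2* was searched.

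A list of 15 other transcripts of sinusoidal endothelium gave a mixed picture. None passed the adjusted test, 12 of the 15 had a log2 fold change above 0, and their median was 0.56 (0.33 without WT mouse 2 and 0.37 without *Lpcat3* KOMac mouse 1). The unadjusted p was under 0.05 for 4, all higher in *Lpcat3* KOMac cells, against 1.07% of all genes tested. *Gata4*, the transcription factor that specifies sinusoidal endothelium, had 0.86 on the log2 scale (SE 0.29). For *Gata4* every *Lpcat3* KOMac library was above every WT library, as for 2.29% of all genes tested. *F8*, coagulation factor VIII, had 0.96 (SE 0.34), the Fc receptor *Fcgr2b* 0.70 and the sinusoidal receptor *Gpr182* 0.73. The 3 below 0 were *Mrc1* (-0.10), *Maf* (-0.13) and *Wnt9b*, which was in effect unchanged (fold 0.998, log2 SE 0.66) at 14 to 84 counts. With DESeq2, 13 of the 15 were above 0. *Mrc1*, the mannose receptor, and *Maf* are also macrophage genes, and their r with *Adgre1* was 0.83 and 0.82. The order of libraries seen in the 7 held for 9 of the 15.

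Genes of endothelium in general, a list of 18, mostly had the order of the 7. Of the 18, 17 had a log2 fold change above 0, the median was 0.73, and 16 had the library order of the 7. None passed the adjusted test. Unadjusted p was under 0.05 for 6, all higher in *Lpcat3* KOMac cells, against 1.07% of all genes tested. No overlap between groups was seen for 4, with every *Lpcat3* KOMac library above every WT library, against 2.29% of all genes tested. Those 4 were the tight junction gene *Cldn5* (0.71, SE 0.21), the endothelial transcription factors *Sox17* (0.93, SE 0.28) and *Sox18* (0.88), and the VEGF receptor *Flt1* (0.69). *Icam2*, an adhesion molecule, was the exception at -0.15 (SE 0.15). These 18 genes summed to 523, 371 and 532 CPM in WT and to 861, 826 and 498 CPM in *Lpcat3* KOMac mice. *Lpcat3* KOMac mouse 3 lay within the WT range, and mice 1 and 2 above it. Without *Lpcat3* KOMac mouse 1, 1 of the 18 and 0 of the 10 had an unadjusted p under 0.05 (179 of all 16457 genes). Without *Lpcat3* KOMac mouse 2 (245 of 16539 genes) or WT mouse 2 (227 of 16566), they were 2 and 0. Without *Lpcat3* KOMac mouse 3, they were 12 and 7 (382 of 16521 genes).

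**Figure D4:**
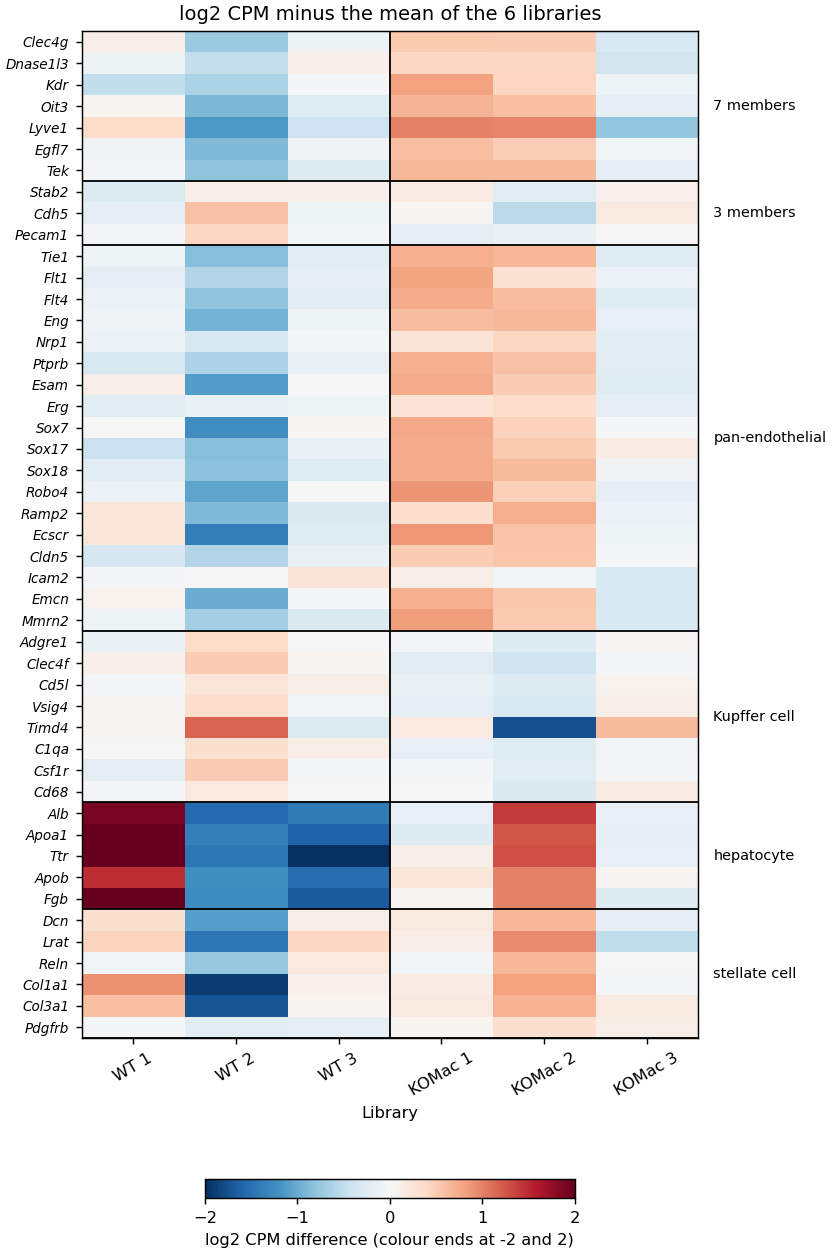
Log2 CPM of each gene minus its mean over the 6 libraries (colour, ending at -2 and 2), for the 7 and the 3 endothelial transcripts, 18 pan-endothelial genes and the Kupffer cell, hepatocyte and stellate cell markers; the vertical line parts WT from *Lpcat3* KOMac. Blue in WT mouse 2 and red in *Lpcat3* KOMac mice 1 and 2 run through the 7 and through 16 of the 18 pan-endothelial genes.

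By position along the sinusoid, endothelial genes of the central vein side (6 tested) had a median log2 fold change of 0.37 and those of the portal side (5 tested) 0.62. None passed the adjusted test. Single mice moved the central median far, to 0.02 without WT mouse 2, 0.12 without *Lpcat3* KOMac mouse 2 and 0.70 without WT mouse 1, where the portal median was 0.67. On the central side *Kit*, a receptor tyrosine kinase, was highest at 0.73 (SE 0.28, unadjusted p under 0.05) and *Thbd*, thrombomodulin, lowest at -0.38. On the portal side *Ltbp4*, a TGF-beta binding protein, was highest at 0.83 (SE 0.27, unadjusted p under 0.05), with 52.4, 34.3 and 49.9 CPM in WT and 100, 87.4 and 54.8 CPM in *Lpcat3* KOMac mice and no overlap. *Adgrg6* was lowest at -0.38 (SE 0.66).

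Macrophage markers moved with these differences, in the opposite direction. All 8 Kupffer cell markers had a log2 fold change below 0, with a median of -0.23, and none passed the adjusted test. *Clec4f*, the Kupffer cell lectin, had -0.44 (SE 0.17) and the complement gene *C1qa* -0.31 (SE 0.12). Both had an unadjusted p under 0.05 and were lower in every *Lpcat3* KOMac library than in every WT library. Over all genes tested, 1.57% were lower at that p and 5.2% had that order. The 8 summed to 31700, 42000 and 33000 CPM in WT and to 29100, 25900 and 32600 CPM in *Lpcat3* KOMac mice. WT mouse 2 was thus highest for Kupffer cell markers and lowest for the 7, and *Lpcat3* KOMac mice 1 and 2 were the reverse. Without WT mouse 2 the Kupffer cell median was -0.07, with 2 of the 8 above 0. Scaled to these 8 markers, all 10 endothelial transcripts had a log2 fold change above 0, with a median of 0.85, which was 0.60 above the median of all genes, against 0.62 with TMM. The part of macrophage content in the endothelial differences was not tested.

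Markers of other cell types stood beside them as follows. Stellate cell markers, 6 of 6 above 0 with a median log2 fold change of 0.33, summed to 59.7 to 162 CPM in WT and 120 to 208 CPM in *Lpcat3* KOMac mice, lowest in WT mouse 2 and highest in *Lpcat3* KOMac mouse 2. Without WT mouse 2 their median was 0.03 and without *Lpcat3* KOMac mouse 2 it was 0.13, each with 4 of 6 above 0. Of these *Pdgfrb* had groups that did not overlap (0.31, SE 0.16). Hepatocyte markers had a median of -0.25 with 1 of 5 above 0, a direction that turned to 1.92 with 5 of 5 above 0 without WT mouse 1. It turned likewise to 0.72 in limma-voom and 0.84 with the replicate block. With the hepatocyte markers as a covariate the median of the 10 endothelial transcripts was 0.50. Lymphocyte markers (6 genes, all in every library) summed to at most 5.01 CPM, neutrophil markers (4 genes, *Ly6g* at 0 in 3 libraries) to at most 5.33, platelet markers (4 genes) to at most 28.5 and bile duct markers (4 genes) to at most 1.14. None of these markers passed the adjusted test, and their part in the endothelial differences was not tested.

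**Figure D5:**
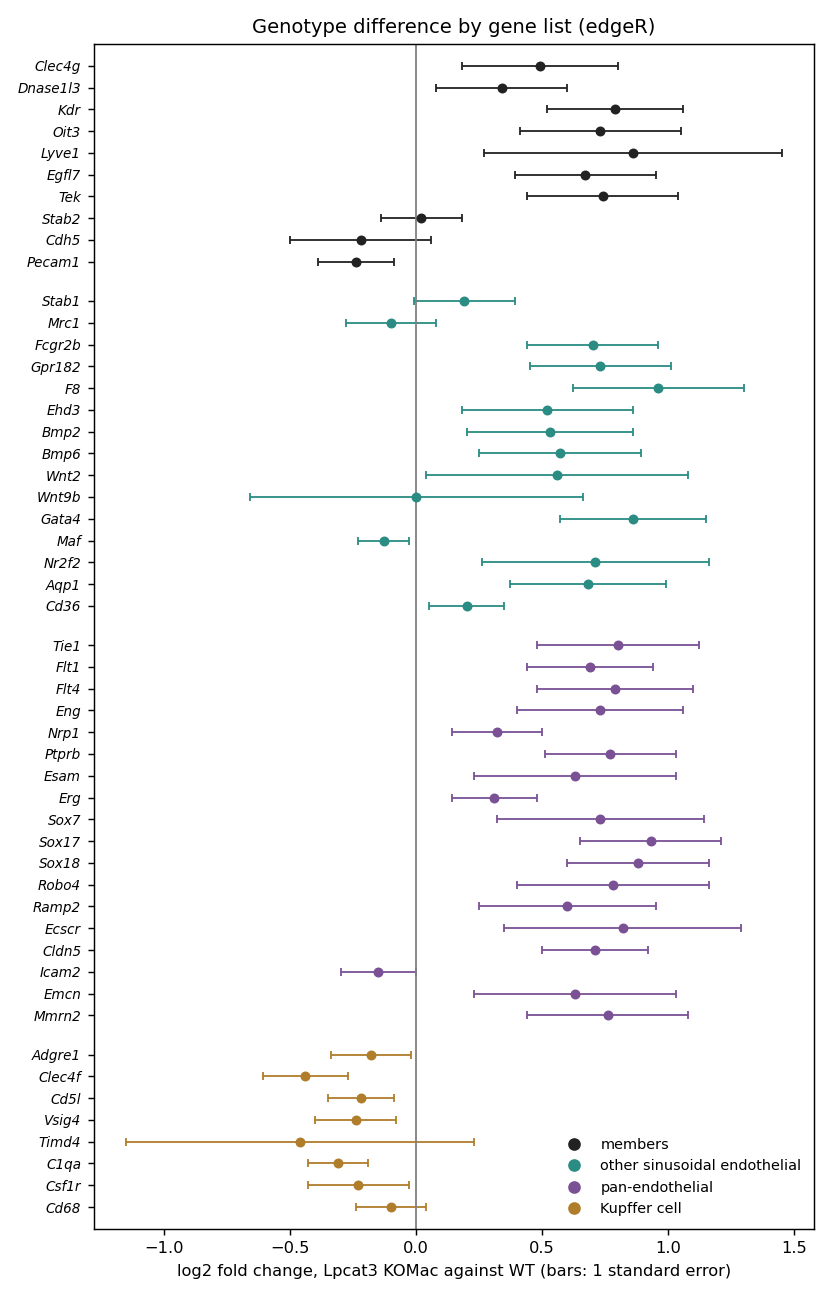
Log2 fold change of *Lpcat3* KOMac against WT (points, edgeR; bars are 1 standard error) for the 10 endothelial transcripts, 15 other sinusoidal genes, 18 pan-endothelial genes and 8 Kupffer cell markers. Medians are 0.58, 0.56, 0.73 and -0.23, and no gene shown passed the adjusted test.

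Among all tested genes outside the list, those whose log2 CPM was most like the mean of the 10 over the 6 libraries were *Adgrf5* (r = 0.998), *Rasgrp3* (0.997), *Osmr* (0.996), *Flt4* (0.996), *Amotl1* (0.994), *Adamts7* (0.993), *Mmrn2* (0.993), *Arhgap23* (0.992), *Tie1* (0.992) and *Hid1* (0.991). *Flt4* encodes the VEGF-C receptor, *Tie1* the relative of TIE2, and *Mmrn2* an endothelial matrix protein. *Stab2* was most like *Tle4* (0.999), *Kif21b* (0.996), *Mau2* (0.995), *Mdn1* (0.995) and *Strn3* (0.993), none of them on an endothelial list used here. Each r is picked from the top of 16134 genes over 6 points, and is a description only.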

How the data were processed

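RNA of liver F4/80-positive cells was sequenced from 3 WT and 3 *Lpcat3* KOMac mice. The authors deposited 1 table per mouse with the count of reads on each of 49315 genes, not normalized. The submitters' processing notes name Trimmomatic 0.36, STAR 2.5.2b, featureCounts of Subread 1.5.2 and GRCm38. Strand setting and treatment of multi-mapping reads are not given in the sources used here. Gene names came from GENCODE M21, in which 49056 identifiers and all 10 members were found, and 9 of the 10 had the same start and end.

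Counts were fitted over all genes in edgeR 4.0.16 (R 4.3.3) with TMM scaling, a minimum count of 10, robust quasi-likelihood and no covariate besides genotype. Benjamini-Hochberg adjustment ran over 16134 genes, with calls at 0.05. CPM used the TMM library sizes, FPKM the exon lengths of the count tables, and log2 CPM a prior count of 2. A count of 3 or fewer was the floor. Single genes were also compared by a two-sided exact permutation test. Alternatives were DESeq2 1.42.0, its size factors in edgeR, limma-voom (limma 3.58.1), total counts, Kupffer cell scaling, other filters, no robust dispersion, a replicate block, a hepatocyte covariate, a 0.5 prior count and the omission of single mice. The model was tested on simulated data.

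The members and gene lists were chosen with earlier results of these data known. Genes named are all 10 members, in each other list the highest and lowest log2 fold change and those with an unadjusted p under 0.05 or groups that do not overlap (at most 4), the 10 genes most like the members' mean and 5 most like *Stab2*, genes whose exons overlap a member, and *Lpcat3*. Some genes that this rule names are given by count only. Promoters are from RefSeq on GRCm38.p6.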

Additional observations from a re-analysis of the deposited data

How the results depend on the processing

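With edgeR and limma-voom 0 genes were called under every alternative, and with DESeq2 12, none of them an endothelial member. The median log2 fold change of the 10 stayed above 0 throughout, from 0.36 to 0.81 when single mice were left out and from 0.50 to 0.85 under the others. With the replicate block it was 0.59, with 0 genes called and 0 members at an unadjusted p under 0.05 instead of 2. Over all 16134 genes, 138 were at an unadjusted p under 0.05 with the block, instead of 426. The deviations of mice with the same number from their group means had r = -0.30, -0.60 and 0.36 for numbers 1, 2 and 3. The mean r was -0.18 for the same number and 0.11 for different numbers. Deviations within groups of 3 mice constrain these values, so they cannot show whether mice shared a litter or day. Scaling to the Kupffer cell markers turned *Pecam1* to 0.08 and *Cdh5* to 0.07. Leaving out single mice moved *Stab2* between -0.10 (without WT mouse 1) and 0.15, with -0.01 without *Lpcat3* KOMac mouse 1, and *Cdh5* between -0.37 and 0.06 (without WT mouse 2). The other 7 members kept a positive log2 fold change under every alternative, the lowest being 0.20 for *Dnase1l3*. The unadjusted p was under 0.05 for 4 members with total counts alone (318 of all 16134 genes). It was so for 3 with DESeq2 (481 of 16134) or no filter (526 of 27888), and for 7 without *Lpcat3* KOMac mouse 3 (382 of 16521). It was so for 0 members without WT mouse 2 (227 of 16566 genes), *Lpcat3* KOMac mouse 1 (179 of 16457) or *Lpcat3* KOMac mouse 2 (245 of 16539). The cause of these changes was not tested. The common biological coefficient of variation was 0.39, and in the test on simulated data with 3 libraries a group edgeR recovered 131 of 191 genes with a 4-fold change (68.6%) among 15759 genes. Each gene was simulated independently, without variation shared between genes such as that of the 7. The largest fold among the 10 was 1.82, for *Lyve1*, so this share does not give the power for them.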

Other observations

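Ligands of the endothelial receptors differed in how far they varied between libraries. *Vegfa*, the main ligand of the receptor encoded by *Kdr*, was at 25.9, 3.49 and 4.92 CPM in WT and 12.9, 21.3 and 11.9 CPM in *Lpcat3* KOMac mice, an order close to that of *Alb* (13100, 1200 and 1320 CPM against 3130, 9290 and 3140 CPM) and unlike that of *Kdr*. *Angpt2*, a ligand of TIE2, had 0.62 on the log2 scale (standard error, SE, 0.43) and *Vegfb* 0.11 (SE 0.15), with *Vegfb* between 9.5 and 13.0 CPM in all 6 libraries. Of 7 such ligands 5 were tested and none passed the adjusted test.

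Markers of larger vessels and of lymphatics differed widely in level. Of the large vessel genes, *Selp* (log2 fold change 0.60, SE 0.95), *Vwf*, *Plvap* and *Cd34* (0.37, SE 0.50) were tested and *Gja5* was too low. *Vwf*, von Willebrand factor, was at 3.57, 3.59 and 4.37 CPM in WT and 6.37, 4.17 and 6.46 CPM in *Lpcat3* KOMac mice. *Plvap*, a protein of endothelial diaphragms, was higher, at 47.2, 25.9 and 35.4 CPM in WT and 49.3, 59.7 and 41.1 CPM in *Lpcat3* KOMac mice. The lymphatic chemokine *Ccl21a* had 0 reads in all 6 libraries, which allows up to 0.0462 to 0.0656 CPM by library. *Prox1*, the lymphatic transcription factor that hepatocytes also express, was at 23.5, 7.69 and 2.27 CPM in WT and 9.90, 34.4 and 13.2 CPM in *Lpcat3* KOMac mice.

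At low levels, 0.077 to 0.255 CPM and 0.719 to 2.19 CPM, the T cell gene *Cd3d* had a log2 fold change of 1.11 (SE 0.37) and the neutrophil gene *S100a8* 0.99 (SE 0.36). Both had an unadjusted edgeR p under 0.05 and an adjusted p of 1, and in each every *Lpcat3* KOMac library was above every WT library. Over all genes tested, 1.07% were higher at that unadjusted p and 2.29% had that order. *Cd3d* rested on 5 to 13 reads a library. The other lymphocyte markers ran from -0.14 for *Cd79a* to 0.74 for *Cd3e*, and the other tested neutrophil markers were *S100a9* (1.01) and *Cxcr2* (0.60).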
